A study of Mus musculus with 2 samples.

Results

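The natural killer (NK) cells described here were 100 of the 17746 retained barcodes of 2 single-cell RNA libraries made from subcutaneous 4T1 tumours, 54 of them in the phototherapy library and 46 in the PBS library. The 4T1 line is a mouse mammary carcinoma line. The phototherapy library came from tumours of mice that received phototherapy with AIE COF, a porous framework material built from organic units, and the PBS library came from tumours of mice given PBS, the control vehicle. Per the labels, tumours were taken 7 days after phototherapy and made into cell suspensions without a stated sort. The strain is labelled C57BL/c, a name that could not be resolved, and the sources used here give no number of animals per suspension. There are no replicates: each group is 1 library, so no test was made, and the 95% intervals below cover counting error only, not the spread between animals.

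A barcode was taken as an NK cell when its unique molecular identifiers (UMIs, each marking 1 captured transcript) of Ncr1, Klrb1c, Klra8 and Gzma summed to at least 3 and to at least 0.1% of its UMIs. It also had to hold no UMI of Cd3d, Cd3e or Cd3g, which encode the CD3 chains of the T cell receptor, and fewer than 5 UMIs of the macrophage complement genes C1qa, C1qb and C1qc together. Barcodes with fewer than 200 detected genes or more than 20% mitochondrial UMIs were left out beforehand. The 4 defining genes chose the cells, so their presence in them is a description and no result.

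NK cells are innate lymphocytes that kill stressed, infected or transformed cells without a rearranged antigen receptor. Germline-encoded activating receptors, which signal through the adaptors DAP12, DAP10 and the Fc receptor gamma chain, are balanced against inhibitory receptors for MHC class I molecules, and killing is done with perforin and granzymes released from lytic granules. In tumours they are also known as a source of interferon gamma and of the chemokines CCL3, CCL4 and CCL5, which draw T cells, monocytes and dendritic cells.

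The NK cells were shallow in both libraries. Their UMI totals ran from 583 to 6788 with a median of 1693 in the phototherapy library, against 646 to 12827 with a median of 2330.5 in the PBS library. The median number of detected genes was 933 in phototherapy and 1162 in PBS NK cells, and the median mitochondrial share was 2.34% and 2.46%. Summed over the cells, 116164 UMIs from the phototherapy library were compared with 150305 from the PBS library. No barcode sequence among the NK cells was shared between the libraries, although 39 barcodes of the whole files were. Of the 100 NK cells, 1 was among the barcodes with the highest doublet scores, the PBS cell with 12827 UMIs.

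The label was checked against genes that the choice did not use. Summed levels are given as CPM, the UMIs of a gene per 1000000 UMIs of the cells summed. Klrk1, which encodes the activating receptor NKG2D, stood at 801 CPM in phototherapy and 785 CPM in PBS NK cells, and Tyrobp, the gene of DAP12, at 1644 and 1484 CPM. Prf1, encoding perforin, had a UMI in 18 of 54 phototherapy and 21 of 46 PBS NK cells. Eomes, a T-box transcription factor of NK cells, had a UMI in 14 phototherapy and 13 PBS NK cells. Its end overlaps Gm33460, so the count is uncertain. Eomes had no UMI in the 465 phototherapy and 229 PBS barcodes of the B lineage, which should lack these genes and had median depths of 1389 and 1694 UMIs. A count of 0 there allows a share of barcodes with a UMI of up to 0.645% and 1.31%, which does not limit the share of cells that express the gene. Prf1 had a UMI in 1 and 2 of them. In CD8 T cells Klrk1 stood at 160 CPM in phototherapy and 269 CPM in PBS, and Eomes at 14.8 and 8.5 CPM. Tyrobp stood at 1150 and 1151 CPM in macrophage barcodes. Barcodes that met the NK score but held a CD3 UMI had Klrk1 at 459 and 935 CPM, Tyrobp at 619 and 1072 CPM and Eomes at 91.7 and 55.0 CPM. The check therefore does not separate NK cells from those barcodes.

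Genes of innate lymphoid type 1 cells (ILC1), close relatives of NK cells, and of tissue residence were unevenly detected. The 18 listed summed to 1937 CPM in phototherapy and 2435 CPM in PBS NK cells, with a UMI in 40 and 35 cells, against 2540 and 1903 CPM for the 13 genes of circulating NK cells. Most of the ILC1 and residence sum came from Rgs1, a regulator of G protein signalling, at 895 and 1091 CPM, and from Gzmc at 603 and 672 CPM, and 7 of the 18 genes were at 0. Itga1, encoding the collagen-binding integrin CD49a, had 14 UMIs in 7 phototherapy NK cells and 9 UMIs in 7 PBS NK cells. Il7r had 2 and 6 UMIs, in 1 cell of each library, and Tnfsf10, encoding the death ligand TRAIL, had 1 and 3 UMIs. Itgam, the integrin CD11b gene that marks mature NK cells, had a UMI in 5 phototherapy and 5 PBS cells. Itga1 and Itgam were thus found in too few cells to sort the NK cells individually at this depth. Cd27 and the ILC1 and residence genes Cxcr6, Gpr183, Cd7 and Xcl1 had no UMI in either whole library. All of them lie inside another annotated gene, so their zeros say nothing about NK cells. Zfp683, also among the 7 at 0, had only 5 UMIs in the whole phototherapy library and 12 in the whole PBS library. The ILC1 and residence sum therefore leaves out genes that could not be counted. Cd200r1 and Itgae, the remaining genes at 0 in NK cells, could be counted and overlap no other annotated gene at their ends. Cd200r1 had 256 UMIs in the whole phototherapy and 206 in the whole PBS library, and Itgae had 406 and 395.

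Transcripts of other lineages were few, with named exceptions. Cd4, Cd8a and Trdc were at 0 in all 100 cells, as were the CD3 genes by choice. Trdc had only 1 UMI in the whole phototherapy library and 2 in the whole PBS library, and its end overlaps Trdv5. The zero of Trdc therefore does not show that cells with a gamma delta T cell receptor are absent. Tcrg-C4, a gamma chain gene, had 4 UMIs in phototherapy and 1 UMI in PBS NK cells. Tcrg-C2, another such gene, was at 0 in NK cells, with 99 phototherapy and 104 PBS UMIs in the whole libraries. The 20 T cell genes summed to 153 UMIs in phototherapy and 162 in PBS NK cells, of which Trbc1, a constant gene of the T cell receptor beta chain, gave 53 and 86. Trbc1 stood at 456 and 572 CPM in NK cells of the phototherapy and PBS libraries, against 473 and 398 CPM in their CD8 T cells, whereas Trbc2 stood at 224 and 146 CPM against 1072 and 909 CPM. The 13 B cell genes summed to 7 and 15 UMIs, the 18 macrophage and monocyte genes to 91 and 112, and the 12 neutrophil, basophil and mast genes to 5 and 5, with S100a8 and S100a9 at 0. The 17 tumour and stroma genes summed to 41 UMIs in phototherapy and 108 in PBS NK cells. Of these, Rhox5 gave 4 UMIs in phototherapy and 22 UMIs in PBS NK cells, and the PBS cell with the high doublet score held 11 of the 22. H19 gave 0 and 11 UMIs, all 11 in 1 PBS cell.

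The 2 libraries were also clustered together on their expression as a whole. All 54 phototherapy NK cells and 45 of the 46 PBS NK cells fell into 1 cluster, and the remaining PBS cell had been left out as a likely doublet. That cluster held 144 phototherapy and 119 PBS barcodes, so it also took in 34 and 20 CD8-negative T cells and 9 and 7 CD8 T cells. It held 7 phototherapy and 8 PBS barcodes that met the NK score but carried a CD3 UMI. A further 40 and 39 barcodes of the cluster belonged to no named class.

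The share of NK cells differed between the libraries by less than counting error. NK cells made up 0.580% of phototherapy barcodes (54 of 9313, 0.436% to 0.756%, exact Clopper-Pearson) and 0.545% of PBS barcodes (46 of 8433, 0.400% to 0.727%), a ratio of 1.06 (0.704 to 1.61, exact conditional binomial). The interval takes in both a lower and a higher share. Among barcodes with a UMI of Ptprc, which encodes the pan-leukocyte marker CD45, the shares were 0.917% of 5782 phototherapy and 1.24% of 3537 PBS barcodes, a ratio of 0.737 (0.485 to 1.13). Set against T cells, NK cells were 4.38% of 1233 phototherapy and 6.44% of 714 PBS barcodes that were either NK cells or held at least 2 CD3 UMIs, a ratio of 0.680 (0.450 to 1.03). The ratio therefore lay above 1 over all barcodes under the rule used and below 1 over the other leukocytes, with 1 inside each interval. Over all barcodes it was 0.974 (0.658 to 1.44) with a score minimum of 2 and 1.14 (0.732 to 1.78) with a minimum of 5. Among barcodes with at least 1000 UMIs it was 0.978 (0.630 to 1.52).

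The cut in the score was not sharp in thin cells. The score had a median of 10.5 and a highest value of 41 UMIs in phototherapy NK cells, against 12 and 77 UMIs in PBS NK cells. Just inside the threshold, 4 phototherapy and 6 PBS cells had a score of exactly 3. Just outside it, 3 phototherapy and 7 PBS barcodes that met the other conditions had a score of 2, and 5 and 7 barcodes failed on the share of 0.1% alone. A CD3 UMI kept out 10 phototherapy and 9 PBS barcodes, 4 and 3 of them with a single such UMI.

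**Figure D1:**
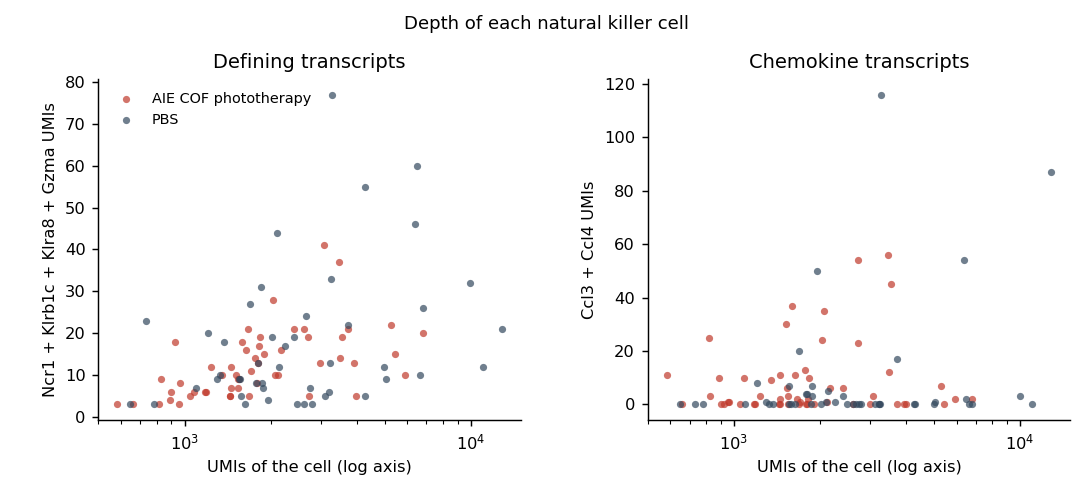
Each point is 1 NK cell (54 phototherapy in red, 46 PBS in dark grey), with its UMI total on a log x axis. The y axis gives summed UMIs of the 4 defining genes on the left and of Ccl3 and Ccl4 on the right. PBS cells reach deeper, up to 12827 UMIs against 6788 in phototherapy, and most of the PBS chemokine UMIs sit in a few cells.

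The defining genes themselves had near-equal levels in the 2 libraries. Because the same minimum of these genes chose the cells in both, their levels are in part fixed by the choice and are given as a description. Ncr1, which encodes the activating receptor NKp46, gave 46 UMIs in 25 phototherapy cells and 60 UMIs in 23 PBS cells, or 396 and 399 CPM. Klrb1c, the gene of the NK1.1 receptor, gave 94 UMIs in 40 phototherapy cells and 110 UMIs in 36 PBS cells. Klra8, the gene of the activating receptor Ly49H, gave 95 UMIs in 24 phototherapy cells and 123 UMIs in 23 PBS cells. The 4T1 line is known to be of BALB/c origin, whereas Ly49H and Ly49D are known from C57BL/6 mice, and the labelled strain does not settle which background these transcripts come from. Gzma, encoding the serine protease granzyme A, gave 448 UMIs in 44 phototherapy cells and 519 UMIs in 35 PBS cells, and supplied 65.6% and 63.9% of the summed score. All 4 genes were found in 10 phototherapy and 7 PBS cells, 3 genes in 13 and 17, 2 genes in 23 and 16, and a single gene in 8 and 6. Gzma was the single gene in 4 phototherapy and 2 PBS cells.

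In T cell, B lineage, macrophage and unnamed barcodes these 4 genes were nearly silent. Klra8 was at 0 in CD8 T, other T and B lineage barcodes of both libraries, and Gzma stood at 2.57 CPM in phototherapy and 2.83 CPM in PBS CD8 T cells. Barcodes rich in these genes were moved out of the other classes by the rule, so the low levels there are in part fixed by the choice. The 10 phototherapy and 9 PBS barcodes that met the NK score but held a CD3 UMI carried them too, with Gzma at 1169 and 1100 CPM, Klrb1c at 344 and 577 CPM and Ncr1 at 91.7 and 797 CPM. Further genes stood well above the T cell, B lineage, macrophage and unnamed barcodes in both libraries, by the lower of the 2 NK levels against the highest level in those classes. These were the lectin receptor genes Klre1, Klra7, Klri2, Klra9 and Klrb1b, the granzyme gene Gzmc, the carbonic anhydrase gene Car2, the signalling inhibitor gene Spry2, the adaptor gene Clnk, the stress sensor gene Ern1 and 1700025G04Rik. Car2 stood at 671 CPM in phototherapy and 665 CPM in PBS NK cells, and at no more than 25.5 CPM in CD8 T, other T, B lineage or macrophage barcodes. They did not set NK cells apart from the barcodes with the NK score and a CD3 UMI, where Gzmc stood at 91.7 CPM in phototherapy and 2722 CPM in PBS, against 603 and 672 CPM in NK cells, and Car2 at 229 and 770 CPM. These genes were picked by their contrast with other cells, so the contrast is a description.

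**Figure D2:**
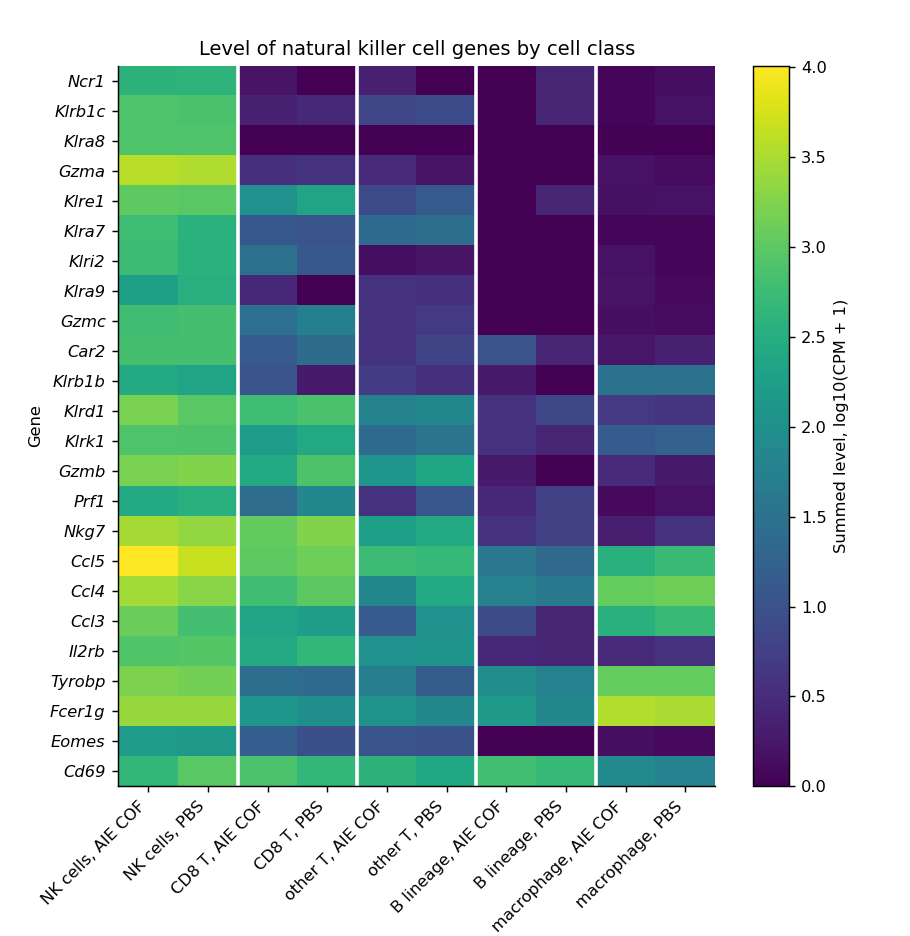
Rows are genes and columns are cell classes, each with the phototherapy library left of the PBS library; the colour gives the summed level as log10(CPM + 1). The 4 defining genes and Klre1 to Klrb1b are bright in NK cells, whereas Nkg7, Klrd1 and Ccl5 are also seen in CD8 T cells and Tyrobp and Fcer1g in macrophages.

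Of the 15 genes that most set NK cells apart, 13 have an entry in RefSeq's promoter table (GRCm38.p6), and the sequences before the start of 3 defining genes are shown because these genes chose the cells and hold a motif match. Each covers 250 bases up to the start, 5' to 3' on the strand of the gene: chr7:4337465-4337714 on the plus strand for Ncr1, chr13:113100982-113101231 on the minus strand for Gzma and chr6:128788642-128788891 on the minus strand for Klrb1c. Capitals mark matches to a Runx motif (TGTGGT) or an Ets motif (GGAAGT) on either strand, where ACCACA is the Runx motif read on the other strand.
Ncr1 promoter: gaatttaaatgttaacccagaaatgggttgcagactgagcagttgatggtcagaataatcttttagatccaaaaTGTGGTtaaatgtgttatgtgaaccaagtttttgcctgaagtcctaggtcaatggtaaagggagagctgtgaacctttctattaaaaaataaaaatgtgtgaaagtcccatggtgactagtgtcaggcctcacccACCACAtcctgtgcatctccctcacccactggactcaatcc
Gzma promoter: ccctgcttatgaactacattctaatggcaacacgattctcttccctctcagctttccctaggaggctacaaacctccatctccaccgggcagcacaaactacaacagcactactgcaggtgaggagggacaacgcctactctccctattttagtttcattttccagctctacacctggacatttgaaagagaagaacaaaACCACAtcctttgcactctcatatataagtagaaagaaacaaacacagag
Klrb1c promoter: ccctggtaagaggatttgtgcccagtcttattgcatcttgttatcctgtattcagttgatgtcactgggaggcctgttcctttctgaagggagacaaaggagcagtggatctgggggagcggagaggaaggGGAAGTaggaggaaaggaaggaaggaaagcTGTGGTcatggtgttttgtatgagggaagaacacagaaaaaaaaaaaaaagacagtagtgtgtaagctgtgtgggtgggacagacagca
The Runx letters were found in 6 of the 13 windows and in 14.2% of the 27025 windows of the same length in the table, and the Ets letters in 4 of the 13 and in 19.99% of all. The 2 motifs share no base in these windows. Klra8, the fourth defining gene, held no match to either motif and is not printed. A T-box motif (GGTGTGA) was in none of the 13 windows and in 3.31% of all. A match is a description of these letters, not evidence of a bound factor.

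Across the transcriptome of the NK cells, 881 genes had at least 50 UMIs over the 2 libraries. Of these, 27 were at least 2-fold higher (3.06% of the genes measured) and 27 at least 2-fold lower (3.06%) in phototherapy NK cells, with a median log2 ratio of -0.03 over all 881. The higher genes spanned a median of 112 kb on the genome and the lower genes 8.11 kb, against 18.2 kb over all genes measured. The higher genes had median log2 ratios of 0.32 in CD8 T, 0.21 in other T, 0.23 in B lineage and 0.17 in macrophage barcodes, and the lower genes -0.36, -0.14, -0.27 and -0.16 in the same order. Over all the genes measured these medians lay between -0.01 and 0.05. The part of gene length in the ratios was not tested. Without the PBS cell with the high doublet score, 22 genes were higher and 15 lower. Without the 11 phototherapy and 15 PBS cells that held an Mki67 or Top2a UMI, 6 were higher and 8 lower of 508 measured. The minimum of 50 UMIs was applied anew each time, so the set of genes measured changed.

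**Figure D3:**
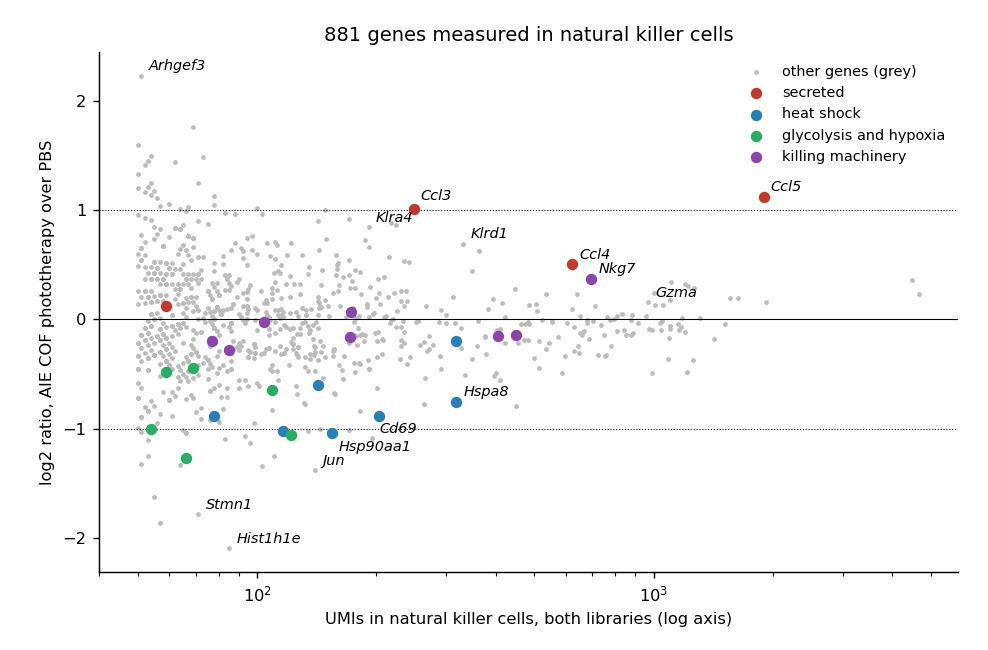
Each point is 1 of 881 genes with at least 50 UMIs, with its UMIs over both libraries on a log x axis and the log2 ratio of phototherapy over PBS on the y axis; dotted lines mark 2-fold. Ccl5 (1.12) and Ccl3 (1.01) lie above the upper line, the 7 heat shock genes all lie below 0, and the widest ratios belong to genes with few UMIs.

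Ccl5 and Ccl3 were each at least 2-fold higher in phototherapy NK cells over the summed UMIs. Ccl5 (chr11:83525778-83530518, GRCm38), a chemokine that draws T cells and monocytes, gave 1190 UMIs in 50 of 54 phototherapy cells and 706 UMIs in 35 of 46 PBS cells. Per cell, Ccl5 ran from 0 over a median of 13.5 to 106 UMIs in phototherapy and from 0 over a median of 6 to 101 UMIs in PBS. Per 10000 UMIs of the cell, the medians were 83.2 in phototherapy and 23.5 in PBS. The highest cell reached 521 per 10000 UMIs in phototherapy and 308 in PBS, the cells of the 2 libraries overlapped below that, and 4 phototherapy and 11 PBS cells held no Ccl5 UMI. The summed levels were 10244 CPM in phototherapy and 4697 CPM in PBS NK cells, a log2 ratio of 1.12 (0.99 to 1.26). When every cell was thinned to 1000 UMIs, 37 of 45 phototherapy and 27 of 43 PBS cells kept a Ccl5 UMI, against 1.3% and 2.3% of B lineage barcodes.

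Ccl3 (chr11:83647844-83649355), encoding another chemokine, gave 151 UMIs in 24 phototherapy cells and 97 UMIs in 13 PBS cells, a log2 ratio of 1.01 (0.63 to 1.39). The highest single cell held 17.2% of the phototherapy and 30.9% of the PBS UMIs. After thinning, 20 of 45 phototherapy and 8 of 43 PBS cells kept a Ccl3 UMI, against 2 of 382 and 0 of 215 B lineage barcodes. Ccl4 (chr11:83662584-83664683), its close relative and neighbour, gave 326 UMIs in 30 phototherapy cells and 297 UMIs in 18 PBS cells, a log2 ratio of 0.51 (0.27 to 0.74) that did not reach 2-fold. A single cell held 33.3% of the PBS Ccl4 UMIs, so the PBS sum rested on few cells. The PBS cell with the high doublet score held 25 of the 97 Ccl3 and 62 of the 297 Ccl4 UMIs, and without it the log2 ratios were 1.31 and 0.72.

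Ifng, the gene of interferon gamma, was low in both libraries. It gave 27 UMIs in 18 phototherapy cells and 32 UMIs in 11 PBS cells, a log2 ratio of 0.13 (-0.67 to 0.91). Of the 15 secreted factors listed, 4 had enough UMIs for a ratio, all 4 lay above 0, 2 of them past 2-fold, and their median log2 ratio was 0.76. Over all genes measured 409 of 881 lay above 0 and 3.06% were at least 2-fold higher. The 4 genes do not stand for the list, because 3 of the 15 were at 0 in all NK cells and the others had too few UMIs. In CD8 T cells the same list had a median of -0.29 and in other T cells -0.32, over the genes measured there. Ccl5 in CD8 T cells stood at 1038 CPM in phototherapy and 1325 CPM in PBS, so its level in NK cells was above that of CD8 T cells in both libraries. Tnf, encoding tumour necrosis factor, gave 3 and 4 UMIs.

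**Figure D4:**
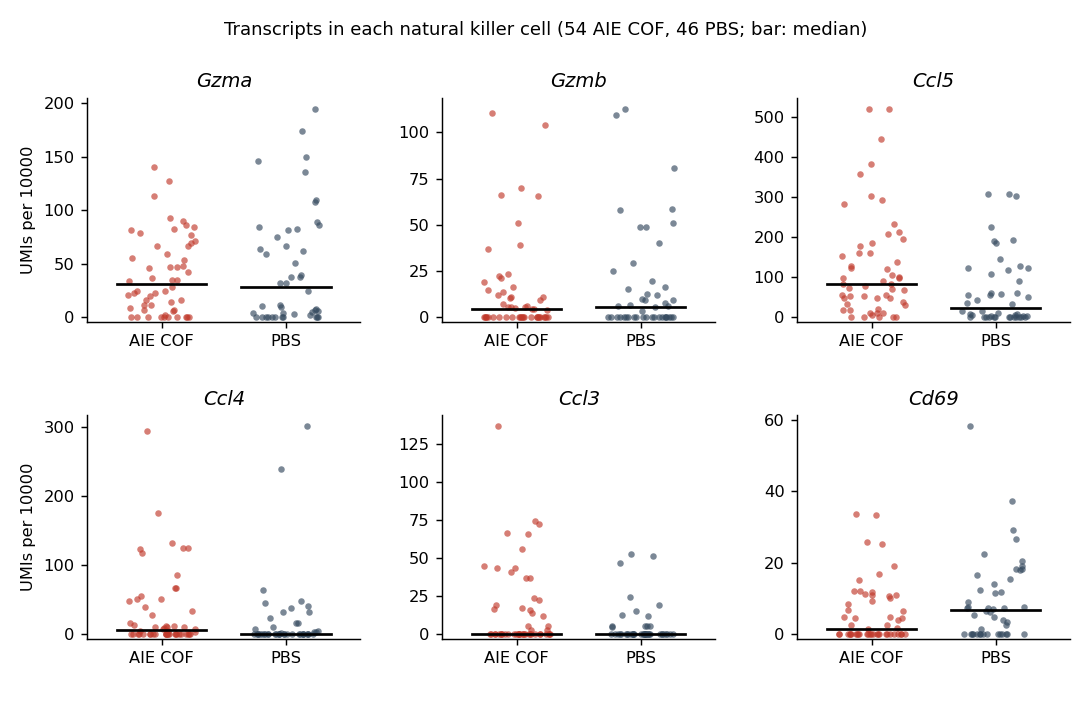
Each point is 1 NK cell, phototherapy on the left and PBS on the right of each panel, and the y axis gives UMIs of the gene per 10000 UMIs of the cell; the bar is the median. Median Ccl5 is 83.2 in phototherapy and 23.5 in PBS cells, median Gzma 31.0 and 28.4, and the points of the 2 libraries overlap in every panel.

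None of the measured killing genes reached 2-fold. Gzmb, the gene of granzyme B, which cleaves caspases in the target cell, gave 186 UMIs in 29 phototherapy cells and 265 UMIs in 25 PBS cells, a log2 ratio of -0.14 (-0.42 to 0.14). Prf1 gave 33 UMIs and 52 UMIs, a log2 ratio of -0.28 (-0.96 to 0.37). Nkg7, which encodes a granule membrane protein needed for degranulation, gave 348 UMIs in each library, in 51 phototherapy and 42 PBS cells, a log2 ratio of 0.37 (0.15 to 0.59). Srgn, encoding the granule proteoglycan serglycin, had a log2 ratio of -0.15 and Serpinb9, an inhibitor of granzyme B that protects the killer cell, one of 0.07. Of the 22 genes listed, 8 were measured, 2 lay above 0 and 6 below, with a median of -0.15, and of -0.25 without the PBS cell with the high doublet score. The same list had a median of -0.73 in CD8 T cells.

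Gzmc, a granzyme of activated lymphocytes, was carried by few cells. It gave 70 UMIs in 3 phototherapy cells, 84.3% of them in 1 cell, and 101 UMIs in 8 PBS cells. None of these 11 cells held a Ccl3 UMI, and the 3 phototherapy cells held no Klra8 UMI whereas 5 of the 8 PBS cells did. Their median depth was 5287 UMIs in phototherapy and 4637 UMIs in PBS, deeper than the other NK cells at 1660 and 1988.5. Without Gzmc, the ILC1 and residence genes summed to 2596 CPM in the phototherapy and 3045 CPM in the PBS cells with Gzmc. The other NK cells had 1152 and 1198 CPM. Circulating NK genes summed to 1230 and 1283 CPM, against 2728 and 2176 CPM. Itga1 had 7 UMIs in the phototherapy and 0 in the PBS cells with Gzmc, and Eomes 0 and 8. These differences were not tested. Gzmd, Gzme and Gzmf were at 0 in all NK cells. In the whole libraries Gzmd had 2 phototherapy and 1 PBS UMIs, Gzme 1 and 7, and Gzmf 1 and 1. Their zeros in NK cells therefore say little. Gzmm was also at 0 in all NK cells, with 62 phototherapy and 107 PBS UMIs in the whole libraries.

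Among activating receptors and adaptors, the counting intervals of Klrd1 and Klra4 lay above 0 and those of the other measured genes took in 0. Klrk1 had a log2 ratio of 0.03 (-0.38 to 0.43), Fcer1g, the gene of the Fc receptor gamma chain, 0.03 (-0.20 to 0.26), Tyrobp 0.15 (-0.14 to 0.43), and Hcst, the gene of DAP10, -0.27 (-0.84 to 0.28). Klrd1 encodes CD94, which pairs with both activating and inhibitory NKG2 chains. Klrd1 gave 184 UMIs in 39 phototherapy cells and 147 UMIs in 37 PBS cells, a log2 ratio of 0.70 (0.37 to 1.02). Klra4, the gene of the activating receptor Ly49D, gave 111 UMIs in 24 phototherapy cells and 80 UMIs in 19 PBS cells, a log2 ratio of 0.84 (0.42 to 1.28). With each cell given equal weight the ratio of Klra4 was 0.05. Klra4 also stood at 170 CPM in phototherapy and 163 CPM in PBS barcodes of no named class, and the part of such transcripts in the NK values was not tested. Of the 18 genes in this list 6 were measured, 5 lay above 0 and none reached 2-fold, with a median of 0.09, and of -0.01 without the PBS cell with the high doublet score.

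Inhibitory receptors of the Ly49 family had ratios on both sides of 0. Klra7, the gene of Ly49G, gave 68 UMIs in 22 phototherapy cells and 54 UMIs in 14 PBS cells, a log2 ratio of 0.70 (0.17 to 1.25). Klra9, another gene of the family, gave 22 UMIs in 10 phototherapy cells and 50 UMIs in 12 PBS cells, a log2 ratio of -0.81 (-1.61 to -0.06). Genes of this family are close copies of each other, so how reads were split between them is uncertain. Klre1, which encodes a lectin chain that pairs with KLRI1 or KLRI2, gave 122 UMIs in 45 phototherapy cells and 145 UMIs in 37 PBS cells, a log2 ratio of 0.12. Klri2, whose product is known to signal as an activating partner of KLRE1 although it stands in this list, had a log2 ratio of 0.59 (0.05 to 1.14). Klrc1, encoding the inhibitory NKG2A chain, had a log2 ratio of -0.10. Of the 18 inhibitory receptor genes 5 were measured, 3 above 0 and 2 below, none past 2-fold. The checkpoint receptor genes Pdcd1 and Havcr2 were at 0 in all 100 NK cells, with 141 and 2961 UMIs in the whole phototherapy library and 470 and 2702 in the PBS library. A count of 0 allows up to 25.8 CPM in phototherapy and 19.96 CPM in PBS NK cells. Tigit had 0 UMIs in phototherapy and 4 in PBS NK cells, and Lag3 had 0 and 1.

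The Ly49 genes were found in overlapping subsets of cells. In phototherapy NK cells, 14 held both Klra4 and Klra8, 10 held Klra4 alone, 10 held Klra8 alone and 20 held neither. In PBS NK cells, 15 held both, 4 Klra4 alone, 8 Klra8 alone and 19 neither. Klra7 and Klra8 were found together in 10 phototherapy and 10 PBS cells. At this depth a missing UMI does not show that a cell lacks the receptor.

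Among cytokine receptors and their signalling genes no measured gene reached 2-fold. Il2rb, encoding the shared beta chain of the receptors for interleukins 2 and 15, gave 98 UMIs in 39 phototherapy cells and 137 UMIs in 42 PBS cells, a log2 ratio of -0.11 (-0.50 to 0.27). Ifngr1 had a log2 ratio of -0.15 and Stat4, which acts below the interleukin 12 receptor, one of -0.35 (-0.90 to 0.19). Jak1 stood higher, with 105 UMIs in phototherapy and 82 in PBS NK cells and a log2 ratio of 0.73 (0.30 to 1.16), but its end overlaps Raver2, so the count is uncertain. Below the minimum of 50 UMIs, Tgfbr2, encoding the receptor for the suppressive cytokine TGF-beta, gave 8 UMIs in 6 phototherapy cells and 25 UMIs in 16 PBS cells. Il18r1 gave 22 UMIs in phototherapy and 13 UMIs in PBS NK cells.

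Of the 29 transcription factors 16 were measured, 12 above 0 and 4 below, with a median log2 ratio of 0.15. Ets1, a factor of NK cell development, was the single listed factor past 2-fold, with 37 UMIs in 23 phototherapy cells and 23 UMIs in 16 PBS cells, a log2 ratio of 1.06 (0.27 to 1.88). Tbx21, encoding T-bet, which drives NK maturation and Ifng, gave 38 UMIs in phototherapy and 27 UMIs in PBS NK cells, a log2 ratio of 0.86 (0.12 to 1.63). Id2, an inhibitor of E proteins needed for the NK lineage, gave 142 UMIs in 45 phototherapy cells and 259 UMIs in 41 PBS cells, a log2 ratio of -0.50 (-0.80 to -0.19). Runx3 had a log2 ratio of 0.11 (-0.39 to 0.60) and Irf8 one of -0.14 (-0.58 to 0.30). Further factors with fewer UMIs were below the minimum of 50, and those named here were chosen after their values were seen. Tcf7, encoding TCF-1, gave 20 UMIs in 14 phototherapy cells and 6 UMIs in 6 PBS cells. Foxo1 gave 28 and 10 UMIs and Runx2 gave 28 and 11 UMIs.

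Of the 25 maturation and trafficking genes 6 were measured, and Cd69 was the single one past 2-fold. Cd69 (chr6:129267325-129275436), an early activation antigen that holds lymphocytes in tissue, gave 52 UMIs in 28 phototherapy cells and 143 UMIs in 31 PBS cells, a log2 ratio of -1.09 (-1.57 to -0.62). After thinning, 16 of 45 phototherapy and 20 of 43 PBS cells kept a Cd69 UMI. The B lineage also carries Cd69, with a UMI in 44.5% of phototherapy and 40.5% of PBS thinned barcodes. In CD8 T cells the ratio was 0.71 and in other T cells 0.71, and over the whole cluster that held the NK cells it was -0.003. Itga2, encoding the integrin CD49b of circulating NK cells, gave 31 UMIs in 17 phototherapy cells and 8 UMIs in 7 PBS cells, under the minimum for a ratio. Lgals3, encoding galectin 3, gave 14 UMIs in 11 phototherapy cells and 37 UMIs in 12 PBS cells, a log2 ratio of -1.03 (-2.03 to -0.11) that turned to 0.43 without the cells with an Mki67 or Top2a UMI.

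Immediate early genes, which answer receptor signals and handling within minutes, had ratios on both sides of 0. Of the 22 listed 19 were measured, 10 above 0 and 9 below, with a median of 0.05. Jun, encoding a subunit of the AP-1 factor, gave 32 UMIs in 21 phototherapy cells and 108 UMIs in 28 PBS cells, a log2 ratio of -1.38 (-2.00 to -0.80). Fos, its partner subunit, gave 197 UMIs in 35 phototherapy cells and 165 UMIs in 35 PBS cells, a log2 ratio of 0.63 (0.32 to 0.93). Nr4a1, a marker of receptor signalling, had a log2 ratio of 0.06 (-0.48 to 0.60).

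Of the 13 heat shock chaperone genes listed 7 were measured, all 7 had log2 ratios below 0, and 2 were at least 2-fold lower in phototherapy NK cells. Their median was -0.88, and over all genes measured 472 of 881 lay below 0 and 3.06% were at least 2-fold lower. The interval of Hsp90ab1, the constitutive HSP90 gene, took in 0, at -0.20 (-0.53 to 0.13). Hsp90aa1, the inducible HSP90 gene, gave 42 UMIs in 27 phototherapy cells and 112 UMIs in 30 PBS cells, a log2 ratio of -1.04 (-1.59 to -0.52). Hspa8, the constitutive HSC70 gene, gave 100 UMIs in 36 phototherapy cells and 218 UMIs in 39 PBS cells, a log2 ratio of -0.75 (-1.11 to -0.40). Hspa5, encoding the endoplasmic reticulum chaperone BiP, gave 60 UMIs in phototherapy and 143 UMIs in PBS NK cells, a log2 ratio of -0.88 (-1.34 to -0.44). The list also had medians below 0 in CD8 T (-0.20), other T (-0.16), B lineage (-0.42) and macrophage barcodes (-0.27). Without the cells that held an Mki67 or Top2a UMI the NK median was -0.42. The highest single cell held 23.2% of the PBS Hsp90aa1 UMIs, and the part of single cells in these values was not tested.

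Of the 21 glycolysis and hypoxia genes listed 6 were measured, all 6 had log2 ratios below 0, and 3 were at least 2-fold lower, against 3.06% of all genes measured. Their median was -0.83 in NK cells. Over the genes measured there, the list had medians of -0.47 in CD8 T, -0.52 in other T, -0.02 in B lineage and -0.18 in macrophage barcodes. The intervals of the glycolytic enzyme genes Pkm (-1.21 to 0.30) and Eno1 (-1.33 to 0.32) took in 0. Gapdh, a glycolytic enzyme gene whose end overlaps Iffo1, gave 16 UMIs in 11 phototherapy cells and 50 UMIs in 21 PBS cells, a log2 ratio of -1.27 (-2.18 to -0.44). Mif, encoding a macrophage migration inhibitory cytokine, gave 33 UMIs in phototherapy and 89 UMIs in PBS NK cells, a log2 ratio of -1.06 (-1.68 to -0.47). Aldoa, encoding aldolase A, gave 15 and 39 UMIs, a log2 ratio of -1.01 (-1.97 to -0.12) that turned to 0.26 when cells were thinned to 1000 UMIs. The tumour and stroma genes summed to 353 CPM in phototherapy and 719 CPM in PBS NK cells, and their part in these values was not tested.

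**Figure D5:**
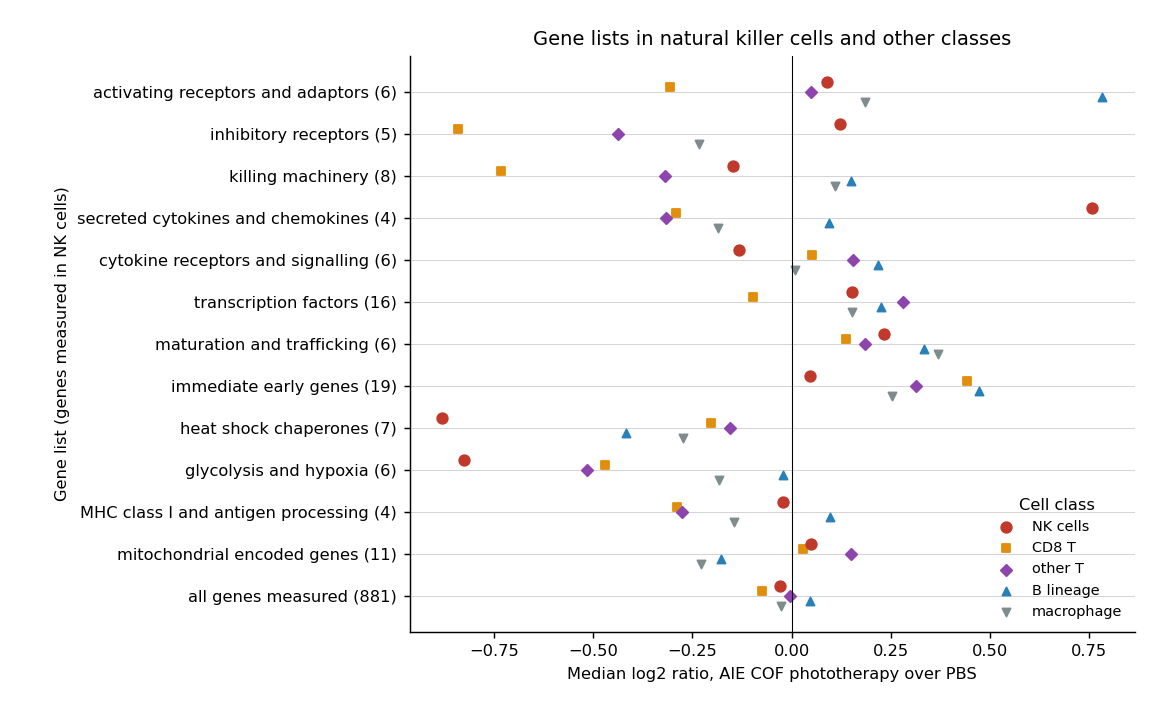
The y axis lists gene groups with the number of genes measured in NK cells, and the x axis gives the median log2 ratio of phototherapy over PBS in NK cells (red circles) and 4 other cell classes. In NK cells the heat shock (-0.88) and glycolysis (-0.83) medians lie lowest and the secreted factors highest (0.76), while all 881 genes have a median of -0.03.

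Interferon-response genes were mostly below the minimum of 50 UMIs. Of the 27 listed 3 were measured, with a median log2 ratio of -0.34. Ifi206, an interferon-inducible gene of the p200 family, gave 11 UMIs in 8 phototherapy cells and 44 UMIs in 15 PBS cells, a log2 ratio of -1.63 (-2.73 to -0.65). In other T cells its ratio was 0.76. Among classical MHC class I genes, H2-K1 had a log2 ratio of -0.05 (-0.26 to 0.17) and H2-D1 one of -0.31 (-0.62 to -0.01). B2m, encoding the MHC class I light chain, was at 0 in both whole libraries and lies inside another annotated gene.

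Of the 25 cell cycle genes at least 1 had a UMI in 49 of 54 phototherapy and 43 of 46 PBS NK cells, and the markers of dividing cells were found in a minority. A UMI of Mki67 or Top2a, both such markers, was present in 11 of 54 phototherapy cells (20.4%, 10.6% to 33.5%) and 15 of 46 PBS cells (32.6%, 19.5% to 48.0%). After thinning to 1000 UMIs this was 7 of 45 and 7 of 43 cells, so the difference in the deeper counts was not seen at equal depth. Stmn1, encoding the microtubule regulator stathmin, gave 13 UMIs in 9 phototherapy cells and 58 UMIs in 13 PBS cells, a log2 ratio of -1.79 (-2.78 to -0.90). Hmgb2 and Tubb5, also of this list, had log2 ratios of -0.01 and -0.14. The 4 measured genes of the list had a median of -0.19, and of 0.05 without the PBS cell with the high doublet score. Hist1h1e, a linker histone gene whose end overlaps Hist1h2be, gave 13 UMIs in 9 phototherapy cells and 72 UMIs in 15 PBS cells, a log2 ratio of -2.10 (-3.07 to -1.23). The PBS cell with the high doublet score held 32 of those 72 UMIs, and without it the ratio was -1.38.

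The remaining genes at the ends of the ratio list had few UMIs each. The 10 highest were Arhgef3, Aff3, Cmip, Rbbp8, Ssh2, Sbno1, Dyrk1a, Fyn, Tsc22d2 and Cobll1, with log2 ratios between 1.25 and 2.23. Arhgef3 gave 40 UMIs in 22 phototherapy cells and 11 UMIs in 9 PBS cells, a log2 ratio of 2.23 (1.24 to 3.35). Fyn, encoding a Src-family kinase that acts below NK receptors, gave 35 UMIs in 24 phototherapy cells and 17 UMIs in 14 PBS cells, a log2 ratio of 1.41 (0.54 to 2.34), and overlaps Gm16364 at its end. Arhgef3 had ratios of 0.86 in CD8 T and 0.24 in macrophage barcodes and spans 289 kb, and Fyn had ratios of 0.61 and 0.25 there. The 10 lowest were Hist1h1e, Tmpo, Stmn1, Ifi206, Jun, Snrpd3, Nucks1, Gapdh, Edf1 and Camk2b, with log2 ratios between -2.10 and -1.25. Tmpo, encoding a lamina-associated protein, gave 10 UMIs in 9 phototherapy cells and 47 UMIs in 18 PBS cells.

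Among themselves the NK cells fell into 2 groups when clustered alone. The first was led by the chemokines, with 542 Ccl4 and 215 Ccl3 UMIs over both libraries against 81 and 33 in the second. It held 25 of 54 phototherapy NK cells (46.3%, 32.6% to 60.4%) and 12 of 46 PBS NK cells (26.1%, 14.3% to 41.1%). The second held 29 phototherapy and 34 PBS cells. Median depth was 1822 UMIs in phototherapy and 1952.5 UMIs in PBS cells of the first group, and 1660 and 2547 UMIs in those of the second. Gzmc had 0 UMIs in the first group and 171 in the second. The groups were made from the expression of these same cells, so the genes that lead them are a description, and the group sizes are no separate result. Ccl3 and Ccl4 were found together in 19 phototherapy and 11 PBS cells, and Ccl5 accompanied Ccl3 in 23 of 24 phototherapy and 13 of 13 PBS cells that held Ccl3.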

How the data were processed

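Whole tumour suspensions were profiled with a 3' single-cell kit, 1 library per group. The authors deposited whole UMI counts of 32285 genes for each barcode, with no normalization. STAR and the mm10 build are named, per the submitters' processing notes. The sources used here give neither their versions nor the counting program and annotation. The whole files held 115576457 UMIs in 10002 phototherapy barcodes and 145045294 UMIs in 8962 PBS barcodes, and no barcode had fewer than 500 UMIs.

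The NK rule and the gene lists were chosen with earlier results of these data known. UMIs were summed over NK cells per library and set as CPM, and log2 ratios were given for genes with at least 50 UMIs over both libraries. Intervals are 95% exact: Clopper-Pearson for shares and conditional binomial for ratios (scipy 1.17.1). Other classes were CD8 T (at least 2 CD3 UMIs and 1 of Cd8a or Cd8b1), other T, B lineage (at least 3 Cd79a and Cd79b UMIs) and macrophage barcodes (at least 5 C1q UMIs). Detection was also counted after thinning cells to 1000 UMIs. Clustering used scanpy 1.11.5 on counts scaled to 10000 with 2000 variable genes, 30 components, 15 neighbours and Leiden resolution 1. Scrublet scores marked doublets at 0.8% per 1000 barcodes. They were kept unless stated. NK cells alone were clustered with 1000 variable genes, 15 components and resolution 0.5.

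Named genes are the 4 defining genes, up to 6 genes with most UMIs and any gene past 2-fold in each of 24 lists, the 10 highest and 10 lowest ratios of NK cells after filters, and the 15 genes most particular to NK cells. The text leaves some of these out, and a few other list genes are named after their values were seen. Gene positions and overlaps come from GENCODE M21 on GRCm38. The ratio statistics were checked on simulated library sums that held counting error only. The simulation had no variation between cells, so it does not cover UMIs that gather in single cells. Of 395 listed genes, 74 were at 0 in NK cells, and 13 of these at 0 in both libraries, 12 of them lying inside another gene.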

Additional observations from a re-analysis of the deposited data

Results flagged for a closer look

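The listed results are genes whose ratio in NK cells and in T cells lay on opposite sides of 0 with both counting intervals away from 0. The differences between cell types were not tested. In NK cells the log2 ratio of phototherapy over PBS was 1.12 for Ccl5, against -0.35 in CD8 T cells. It was 0.51 for Ccl4, against -0.76 in CD8 T cells and -2.00 in other T cells, and 1.01 for Ccl3, against -3.01 in other T cells. Ccl3 rested there on 33 phototherapy and 172 PBS UMIs. Klrd1 had 0.70 in NK cells and -0.31 in CD8 T cells, and Nkg7 had 0.37 in NK cells, -0.68 in CD8 T cells and -0.56 in other T cells. Cd69 ran the other way, with -1.09 in NK cells and 0.71 in each T cell class. Nfkbia, encoding an inhibitor of NF-kB, had -0.27 in NK cells, 0.61 in CD8 T cells and 0.31 in other T cells. Ifi206 had -1.63 in NK cells and 0.76 in other T cells, Fos 0.63 and -0.24, and the mitochondrial co-chaperonin gene Hspe1 -0.60 and 0.15. Sbno1, a helicase-like gene, had 1.45 in NK cells and -0.42 in CD8 T cells.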

How the results depend on the processing

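No paired analysis was possible because each group is 1 library and the result comes from no test. The NK share ratio stayed within its counting interval under 13 of 14 alternatives and was 0.680 over NK and CD3 barcodes. It lay on both sides of 1, with a highest value of 1.32 when the score had to reach 0.2% of the UMIs. Genes at least 2-fold higher and lower numbered 160 and 155 with at least 20 UMIs and 4 and 10 with at least 100. At 1.5-fold they numbered 92 and 87 of the 881 measured. They numbered 1 and 2 of 261 measured after thinning to 1000 UMIs, 11 and 11 with Ncr1, Klrb1c and Klra8 alone choosing the cells, and 6 and 8 without Mki67 or Top2a cells. Lower genes numbered 15 without the doublet-scored cell and 48 over the whole cluster. The number of genes measured changed with the UMI minimum and with the cells used, so these counts cannot be compared as shares. Of the genes that were 2-fold higher and lower over summed counts, 15 and 12 were so with equal cell weight. Of 756 gene values, 661 stayed within their counting interval and 93 moved outside it. The other 2 were values of genes past 2-fold that turned direction. Lgals3 turned to 0.43 without Mki67 or Top2a cells and Aldoa to 0.26 after thinning, and the cause was not tested. Changes of sign were not counted for genes under 2-fold. Of 134 values of list medians, 91 stayed between the lower and upper quartile of the ratios in their list and 43 moved outside. After thinning to 1000 UMIs, 9 list medians moved and 5 stayed. Without Mki67 or Top2a cells 8 moved and 7 stayed, and with Ncr1, Klrb1c and Klra8 alone choosing the cells 7 moved and 8 stayed. Ccl5 ranged from 0.79 to 1.15. The minimum of 50 UMIs was a choice, and at 54 and 46 cells the counting intervals of genes near it were wide.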
